A study of Homo sapiens with 10 samples.

Results

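The respiratory chain is described here through 121 gene symbols of the 42335 in the expression table, 108 of them nuclear and 13 encoded by mitochondrial DNA. Members were taken by symbol: those starting with NDUF, UQCR, ATP5, SDHA to SDHD, COX and a digit, MT-ND, MT-CO, MT-CY or MT-ATP. Of 216 symbols with these beginnings, 89 pseudogene names, 3 antisense genes and 3 joined or divergent transcripts were left out. The nuclear members comprise 37 genes of complex I, 4 of complex II, 9 of complex III, 17 of complex IV, 19 of ATP synthase, 21 assembly factors and NDUFA4L2, a paralog of NDUFA4. The mitochondrial members comprise 7 genes of complex I, 1 of complex III, 3 of complex IV and 2 of ATP synthase. The rule itself reads symbols only, and it was set with earlier results of these data known.

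Oxidative phosphorylation passes electrons from NADH and succinate through complexes I to IV to oxygen, and ATP synthase uses the proton gradient this builds. Most subunits are made in the cytosol from nuclear genes and imported. A small core is transcribed from both strands of mitochondrial DNA as long precursors that are cut into shorter RNAs. Complex II has no mitochondrially encoded subunit. Pluripotent stem cells rely heavily on glycolysis, and neural differentiation is known for a shift in the balance of both routes.

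The RNA came from H9, an established line of human embryonic stem cells, taken through a neural differentiation. One line was wild type (Ctrl) and the other carried the genotype labelled SOX1-OT V1 PAKI (V1PAKI), with 1 library of each at the stages labelled d0, d4, d10, d16D and d16V. What PAKI, D and V stand for is not said in the labels, nor whether V1PAKI is a single clone. Per the labels' protocols, embryoid bodies were floated without FGF-2, put into neural medium on day 4 and attached on day 7. Cells for the ventral telencephalon received 200 ng/ml Shh and 1.5 µM SAG, both activators of hedgehog signalling, from day 10. With 1 library per line and stage, p-values rest on the spread left after stage and line are fitted. That spread holds any line difference that varies between stages, and p-values do not measure the spread between cultures.

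Values are FPKM, fragments scaled by transcript length and by library total, and the depth of the libraries is unknown. SOX1-OT, the noncoding gene that the V1PAKI label names, stood at 1.87 (Ctrl) and 0.212 FPKM (V1PAKI) for d16D, at 3.51 and 1.22 for d16V, and at 0.0513 or less in the 6 earlier libraries. Summed pluripotency markers were at 1202 to 1596 FPKM at d0 and d4, 708 to 764 at d10 and 274 to 539 at day 16, while neural progenitor markers were at 54.6 to 75.2 at d0 and d4 and 316 to 646 at day 16. Neuron markers were at 97.2 to 237 at day 16 and 19.5 to 51.0 before. Mesenchyme and muscle markers summed to 1037 FPKM in Ctrl d10 and 1123 in V1PAKI d16D, against 13.3 to 331 in the other libraries. Trophoblast and amnion markers summed to 280 in Ctrl d10 and 145 in V1PAKI d16D, against 1.46 to 62.8 in the others. Endoderm and liver markers summed to 2365 in V1PAKI d16D, against 0.173 (Ctrl d0) to 415 (Ctrl d16D) in the others. Without V1PAKI d16D, 10 mitochondrial and 19 nuclear members fell from d0 to day 16, where 14% of all genes fell. With all libraries it was 12 and 23, where 15.1% of all genes fell. The Ctrl d0 and V1PAKI d10 libraries stood apart, with low values of GC-rich transcripts. Across 15490 genes, Spearman's rho between a gene's deviation from its mean and its GC content was -0.405 in Ctrl d0 and -0.681 in V1PAKI d10, against -0.0915 to 0.461 in the other libraries. The value of 0.461 was that of Ctrl d10, which deviated the other way, with high values of GC-rich transcripts. The counts and medians of all mitochondrial and of all nuclear members from d0 to day 16 are given with and without Ctrl d0 and V1PAKI d10. That alternative was chosen after seeing the data, and V1PAKI d0 is then the only d0 library. Its calls, kept or lost, and those of any fit without a d0 library, rest on 1 culture at d0. Counts by complex and for other gene lists use all libraries unless said otherwise.

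The mitochondrial messages were among the most abundant in the cells, and their genes are packed closely enough to share bases. MT-ATP8 (chrM:8366-8572, plus strand of GRCh38), a small subunit of ATP synthase, shares its last 46 bases with the start of MT-ATP6, the proton-channel subunit, so fragments there cannot be given to 1 of the genes with certainty. Its transcript in GENCODE 29 is shown with those shared bases in capitals, because the values of both genes rest on them in part.
MT-ATP8: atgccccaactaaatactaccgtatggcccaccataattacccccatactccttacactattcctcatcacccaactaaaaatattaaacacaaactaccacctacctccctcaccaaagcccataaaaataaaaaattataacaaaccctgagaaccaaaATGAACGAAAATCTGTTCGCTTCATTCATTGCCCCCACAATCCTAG
MT-ND4L and MT-ND4, both complex I subunits, share 7 bases. MT-ND6 is the only member on the minus strand of mitochondrial DNA, and whether the counting used strand is not given in the sources used here. The ratio of MT-ATP8 to MT-ATP6 was 0.726 to 0.821 over the 10 libraries, that of MT-ND4L to MT-ND4 0.845 to 1.27, and that of MT-ND6 to MT-ND5 0.846 to 1.26. Nuclear copies of mitochondrial genes were also listed, such as MTND2P28 at 151 to 357 FPKM and MTATP6P1 at 127 to 358 FPKM, and reads could be split between copies.

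By mean FPKM, the 13 mitochondrial members ranked between 1 and 16 of all genes in the table, and the highest nuclear member, ATP5F1B, the catalytic beta subunit of ATP synthase, ranked 62. Median FPKM over the 10 libraries ran from 1011 for MT-ND5 to 6466 for MT-CO1, the catalytic subunit of complex IV. Nuclear members spread far wider. Of the 101 nuclear members tested, 3 had a median of at least 100 FPKM and 68 of at least 10 FPKM. The 13 mitochondrial members together made up 19.1% to 21.3% of summed FPKM at d0, 19.6% and 19.8% at d4, 14.5% and 17.9% at d10 and 11.5% to 13.4% at day 16. The 108 nuclear members made up 1.07% to 1.48% in every library.

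From d0 to day 16 the mitochondrial messages fell together. MT-CYB, the cytochrome b of complex III, was at 2097, 2018, 1351, 920 and 973 FPKM in Ctrl at d0, d4, d10, d16D and d16V, and at 1901, 2089, 1427, 875 and 987 in V1PAKI. Both lines held their level at d4, were lower at d10 and lowest at day 16, with no overlap between day 0 and day 16. The change (mean of the day 16 libraries minus d0, on the log2(FPKM + 1) scale) was -1.09 (SE 0.147, limma adjusted p = 0.00227). MT-ND4, a membrane-arm subunit of complex I, was at 3628, 3065, 1920, 1604 and 1791 FPKM in Ctrl and at 3244, 2878, 2518, 1435 and 1521 in V1PAKI. Its change was -1.12 (SE 0.18, limma adjusted p = 0.00427), the lowest of the 13. MT-CO1 was at 8408, 8807, 5957, 5380 and 5583 FPKM in Ctrl and at 8483, 7168, 6975, 4506 and 4909 in V1PAKI, a change of -0.73 (SE 0.172, limma adjusted p = 0.0165).

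Of the 13 mitochondrial members, 12 passed the test, all downward, by 1.40-fold to 2.17-fold, against 15.1% of the 15779 genes tested that fell and 17.4% that rose. Their median change was -0.92, against 0.07 for all genes tested, and it was -1.03 in Ctrl and -0.88 in V1PAKI. MT-ATP8 fell by 1.08 and MT-ATP6 by 1.07 on the log2 scale. These 2 genes share 46 bases, so their falls are not separate observations. MT-CO2, which accepts electrons from cytochrome c, fell by 0.86. MT-ND2 fell by 1.09, MT-ND4L by 1.00, MT-ND6 by 0.92, MT-CO3 by 0.76, MT-ND5 by 0.73 and MT-ND1 by 0.49.
The exception was MT-ND3, a complex I subunit, at 1243, 2003, 1378, 1187 and 1291 FPKM in Ctrl and 2266, 2113, 1334, 1223 and 1257 in V1PAKI, a change of -0.44 (SE 0.221, limma adjusted p = 0.165). Its low d0 value in Ctrl lay within the day 16 range, while V1PAKI d0 lay far above it. For the other 12 members all 4 day 16 libraries lay below both d0 libraries, as for 27.9% of all genes tested. Fewer cells of a type and less RNA per cell cannot be told apart in these bulk samples.

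**Figure D1:**
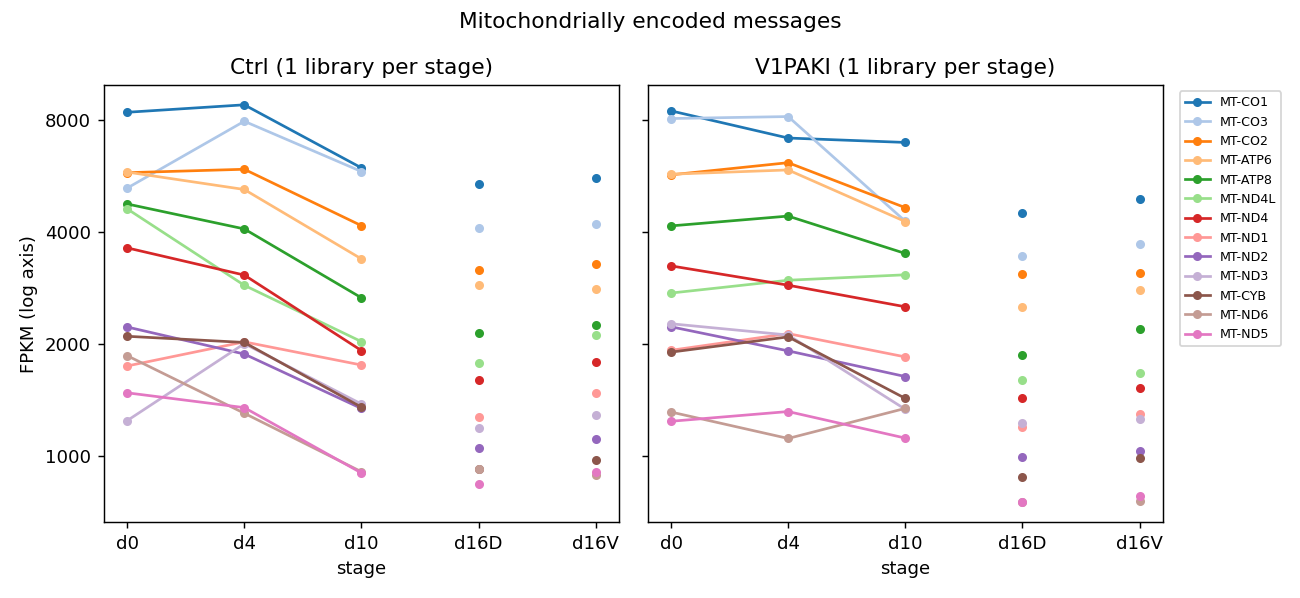
FPKM (log axis) of the 13 mitochondrially encoded genes by stage, 1 panel per line and 1 point per library. The d16D and d16V points are unjoined because they are separate arms. In both panels MT-CYB is at 875 to 987 FPKM at day 16, and MT-ND3 starts low in Ctrl only.

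The size of this set of calls depended on single libraries and on scaling. All 13 mitochondrial members fell without Ctrl d0 and V1PAKI d10 (10.4% of all genes fell), with a median of -0.86, and 9 fell without the trend with GC content and length (18.3% of all genes). With no filter on low values 2 fell, with p-values adjusted over 42335 genes, of which 4.41% fell. In TPM, which rescales every library to the same total and moves the median of all genes to 0.28, 6 fell and the median was -0.71, while 10.3% of all genes fell and 24.6% rose. Leaving out 1 library gave 5 falls without Ctrl d0 (4.8% of all genes fell), 6 without V1PAKI d16V (7.2%) and 7 without Ctrl d16V (9.28%), and 9 to 12 without each of the other 7. Calls over all genes dropped in those 3 fits too, and in the other 7 fits 6.98% to 20.4% of all genes fell. Leaving out 1 library moved the change by over 1.5 times for 2 of the 12 called members. MT-CO3 stood at -0.34 without V1PAKI d0 and -1.17 without Ctrl d0, and MT-ND4L at -0.61 without Ctrl d0.

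Lower values appeared over the later steps. Between d0 and d4, 8 of the 13 mitochondrial members were below 0, with a median of -0.06. From d4 to d10 all 13 were lower in the fit, with a median of -0.43 (-0.54 in Ctrl, -0.24 in V1PAKI). The d4 to d10 median was -0.20 without Ctrl d10 and -0.57 without V1PAKI d10. From d10 the medians were -0.50 to d16D and -0.41 to d16V, again with 13 of 13 below 0, and d16V stood 0.08 above d16D. Without V1PAKI d10 the medians from d10 were -0.32 to d16D and -0.23 to d16V, and without Ctrl d10 they were -0.67 and -0.56. No member of either genome passed the test in these shorter steps. For d4 minus d0, limma called 0 mitochondrial and 0 nuclear members, against 0.507% of all genes that rose and 0.311% that fell. At an unadjusted p below 0.05 there were 0 mitochondrial and 4 nuclear members, against 988 rises and 882 falls among all 15779 genes. For d10 minus d4 it called 0 members, against 0.919% of genes that rose and 0.52% that fell. Unadjusted there were 5 mitochondrial and 4 nuclear members, against 1232 rises and 1165 falls among all genes. For d16D minus d10 it called 0, against 0.551% and 0.38% of genes. Unadjusted there were 7 mitochondrial members, all lower, and 10 nuclear members, against 1497 rises and 1180 falls among all 15779 genes. For d16V minus d10 it called 0, against 0.52% and 0.292%. Unadjusted there were 3 mitochondrial members, all lower, and 12 nuclear members, against 1716 rises and 1424 falls among all 15779 genes. For d16V minus d16D it called 0 members, against 0.196% and 0.165%. Unadjusted there were 0 members of either genome, against 402 rises and 440 falls among all genes.

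Nuclear members moved less and in both directions. Over the 101 tested, 23 fell (background 15.1%) and 3 rose (background 17.4%) from d0 to day 16, with a median of -0.18. The median was 0.04 in Ctrl and -0.44 in V1PAKI. Its sign rested on the d0 libraries and on scaling, at -0.47 without that of Ctrl, 0.10 without that of V1PAKI and 0.02 in TPM. With both libraries that stood apart left out it was -0.43. All 23 that fell were below 0 in both lines, by 1.44-fold to 2.66-fold. Day 16 lay wholly below d0 for 41 of the 101 nuclear members, against 27.9% of all genes, and wholly above it for 10, against 30%. The summed mitochondrial FPKM was 19.98, 14.8, 11.4, 11.5 and 12.4 times the nuclear sum in Ctrl at d0, d4, d10, d16D and d16V, and 13.3, 13.4, 16.8, 9.30 and 11.1 times in V1PAKI. Both lines ended with a lower ratio than they began with, by 0.74 in Ctrl and 0.39 in V1PAKI on the log2 scale, a difference for which the design gives no test. The highest ratios of each line were in Ctrl d0 and V1PAKI d10, the libraries that stood apart, where nuclear members were low. Without those libraries 30 nuclear members fell and 0 rose, against 10.4% and 5.86% of all genes.

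**Figure D2:**
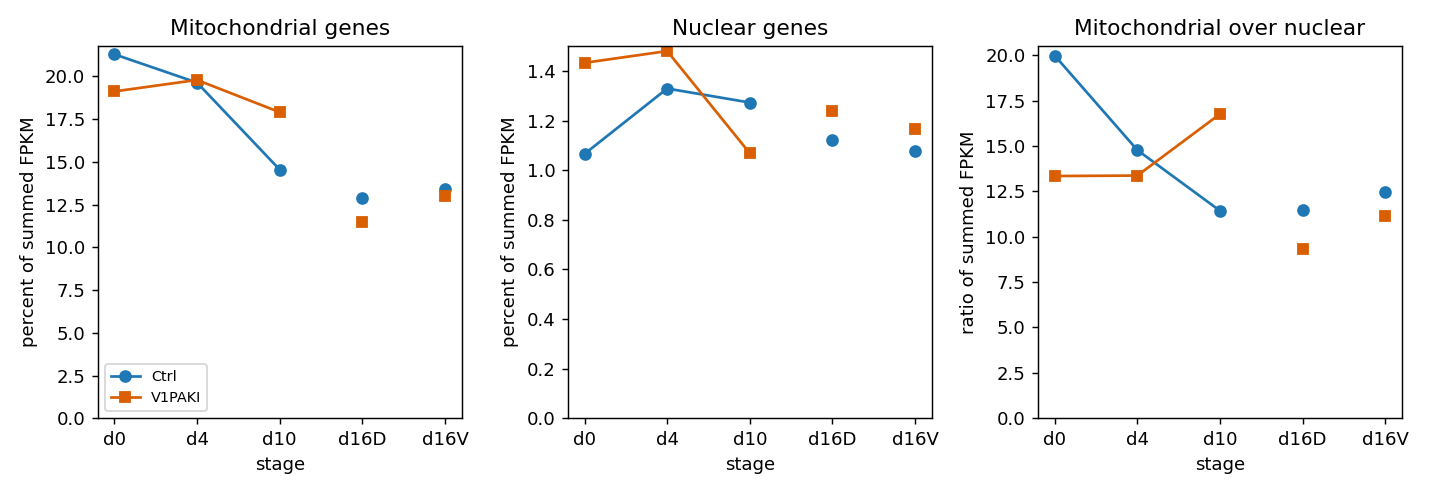
Summed FPKM of the 13 mitochondrial and 108 nuclear genes as a percent of all FPKM, and the ratio of the sums, by stage, 1 point per library. The mitochondrial share drops from 21.3% and 19.1% at d0 to between 11.5% and 13.4% at day 16, and the nuclear share is lowest in Ctrl d0 (1.07%) and V1PAKI d10 (1.07%).

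Leaving out 1 library changed the nuclear count of 23 falls and 3 rises to 10 and 0 without Ctrl d0, where 4.8% of all genes fell and 3.15% rose. It was 5 and 5 without V1PAKI d0 (6.98% and 12.5% of all genes) and 5 and 0 without V1PAKI d16V (7.2% and 9.43%). It was 13 and 0 without Ctrl d16V (9.28% and 9.31%), and 15 and 0 without Ctrl d4 (10.4% and 12%) and likewise without V1PAKI d4 (10.4% and 11.9%). In TPM it was 17 and 5 (10.3% and 24.6%), and without the trend with GC content and length 19 and 5 (18.3% and 20.9%), with 14 of the 23 among the falls. Across the 101 nuclear members the change rose with GC content (Spearman's rho 0.474, across genes that share the same libraries, no test), against 0.269 over all 15490 genes with a known GC content. Without Ctrl d0 and V1PAKI d10 these were 0.408 and 0.178. Members that fell had a median GC content of 43.6%, and those tested 47.4%.

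**Figure D3:**
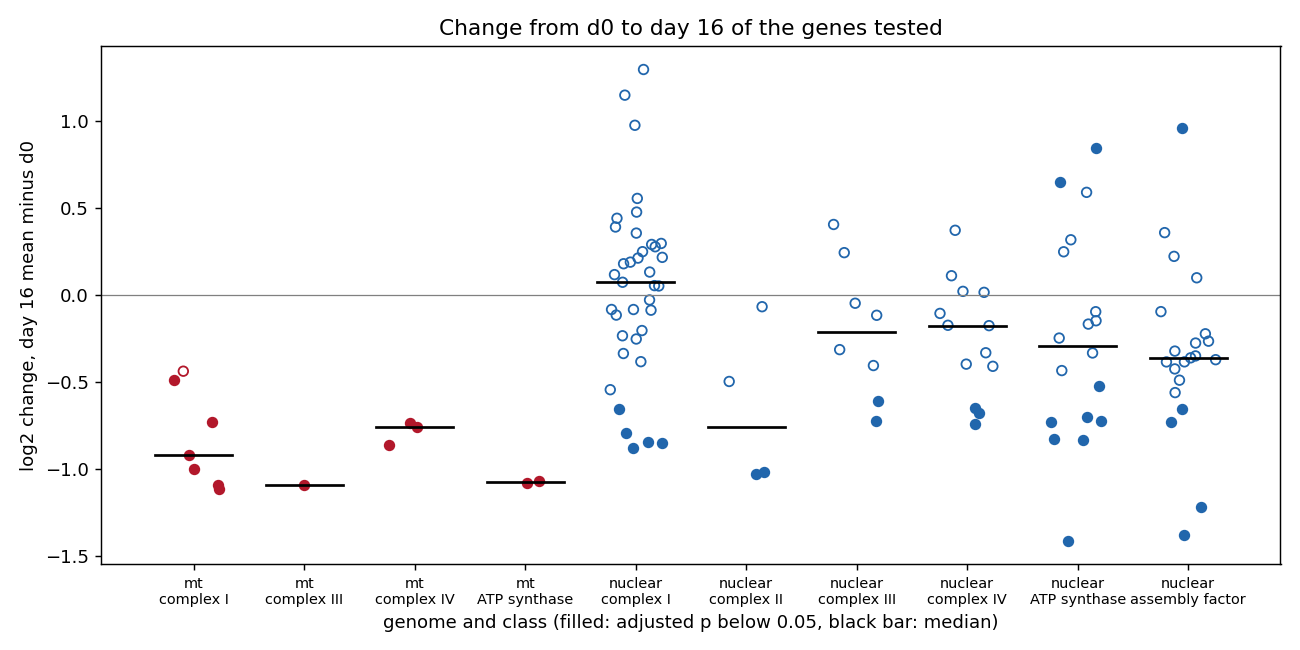
Log2 change from d0 to the day 16 mean for the 114 members tested, by genome and class, filled where the limma adjusted p was below 0.05, with black bars at medians and horizontal scatter for legibility only. The mitochondrial classes lie wholly below 0, while nuclear complex I straddles 0 with a median of 0.07.

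Complex II, which joins the citric acid cycle to the chain, is nuclear throughout, and 2 of its 4 genes fell (background 15.1%). SDHB, its iron-sulfur subunit (chr1:17018722-17054170), was at 13.1, 13.5, 11.03, 6.23 and 8.10 FPKM in Ctrl and 17.4, 16.9, 7.59, 8.34 and 5.39 in V1PAKI, a change of -1.03 (SE 0.253, limma adjusted p = 0.0199). SDHD, a membrane anchor (chr11:112086773-112120013), was at 21.0, 25.9, 17.1, 9.66 and 10.9 FPKM in Ctrl and 26.5, 28.5, 17.2, 13.8 and 10.5 in V1PAKI, a change of -1.02 (SE 0.175, limma adjusted p = 0.00549). Day 16 lay wholly below d0 for both genes, as for 27.9% of all genes tested. The call of SDHB was lost without Ctrl d0 and V1PAKI d10, where its change was -1.19. SDHA, the flavoprotein, changed by -0.50 (limma adjusted p = 0.104) and SDHC, the other anchor, by -0.07 (limma adjusted p = 0.783), and neither passed the test.

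ATP synthase had the most nuclear calls, 7 falls (38.9%, background 15.1%) and 2 rises (11.1%, background 17.4%) among 18 genes tested. ATP5F1B was at 356, 367, 302, 213 and 204 FPKM in Ctrl and 385, 386, 286, 220 and 195 in V1PAKI, a fall of 0.83 (SE 0.146, limma adjusted p = 0.00583). ATP5F1A, its partner alpha subunit, fell by 0.73 and ATP5F1C, the central stalk gamma subunit, by 0.72. The other falls were ATP5PD (0.83), ATP5PB (0.53), both of the peripheral stalk, and ATP5MD (0.70), a small membrane subunit. Without V1PAKI d0 the changes of ATP5PD and ATP5MD were both -0.45. The call of ATP5PB was lost in TPM (-0.32, limma adjusted p = 0.136). ATP5F1E, the epsilon subunit, rose by 0.65 (SE 0.18, limma adjusted p = 0.0293), from 8.78 and 8.13 FPKM at d0 to 12.6 to 15.1 at day 16, and the call was lost without Ctrl d0 and V1PAKI d10 (0.68, limma adjusted p = 0.0941). ATP5IF1, the inhibitor of ATP hydrolysis by this enzyme, changed by 0.32 (limma adjusted p = 0.498).

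Subunit c, which forms the rotating ring, is encoded by ATP5MC1, ATP5MC2 and ATP5MC3, whose mature proteins are identical, and these genes moved apart. ATP5MC1 (chr17:48892765-48895871) was at 17.6, 22.4, 13.6, 8.37 and 7.93 FPKM in Ctrl and 34.3, 22.9, 11.2, 10.6 and 7.87 in V1PAKI. It fell by 1.41 (SE 0.247, limma adjusted p = 0.00576), the lowest change of the 114 members tested. ATP5MC2 (chr12:53632726-53677408) was at 21.1, 37.4, 45.9, 53.8 and 49.9 FPKM in Ctrl and 36.6, 37.3, 28.2, 45.1 and 54.4 in V1PAKI. It rose by 0.84 (SE 0.275, limma adjusted p = 0.0496), just under the threshold, and it missed it without Ctrl d0 and V1PAKI d10 (0.44, limma adjusted p = 0.12). The change was 0.36 without Ctrl d0 and 1.33 without V1PAKI d0. ATP5MC3 was at 12.2 to 28.4 FPKM, with a change of -0.25 (limma adjusted p = 0.53). Of the 3 genes' summed FPKM, ATP5MC1 held 34.4% (Ctrl) and 36.1% (V1PAKI) at d0 and 10.5% to 14.4% at day 16, while ATP5MC2 held 41.1% and 38.6% at d0 and 61.4% to 72.3% at day 16. At d10 the ATP5MC2 share lay between these, at 58.2% (Ctrl) and 54.7% (V1PAKI).

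**Figure D4:**
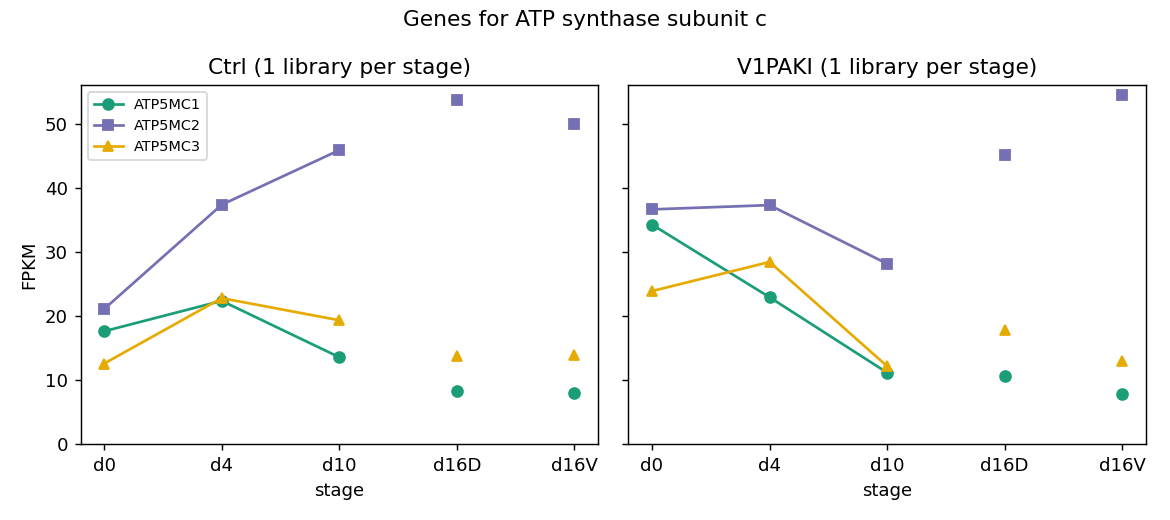
FPKM of ATP5MC1, ATP5MC2 and ATP5MC3 by stage, 1 panel per line and 1 point per library, with d16D and d16V unjoined. ATP5MC1 is between 7.87 and 10.6 FPKM at day 16 in both lines and ATP5MC2 between 45.1 and 54.4 FPKM.

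In complex I, 5 of 37 nuclear genes fell (13.5%), a share near the 15.1% of all genes tested, and 0 rose. The falls were NDUFAB1 (0.88), the mitochondrial acyl carrier protein, NDUFB6 (0.85), NDUFV2 (0.85), an iron-sulfur subunit of the NADH-oxidizing module, NDUFS5 (0.79) and NDUFB4 (0.65). Without V1PAKI d0, NDUFB6 stood at -0.45 and NDUFS5 at -0.52. The call of NDUFAB1 was lost without Ctrl d0 and V1PAKI d10 (-0.79). That of NDUFB4 was lost in TPM (-0.46, limma adjusted p = 0.0531). NDUFS1, the largest core subunit, changed by -0.38 (limma adjusted p = 0.125) and NDUFV1, which binds NADH, by 0.12 (limma adjusted p = 0.761). The 3 highest changes of all nuclear members were also here and none passed the test, NDUFA3 at 1.29, NDUFA1 at 1.15 and NDUFA13 at 0.97. Without Ctrl d0 the changes of NDUFA1 and NDUFA13 were -0.40 and -0.11. NDUFA1 was at 7.51 FPKM in Ctrl d0 and 12.5 in V1PAKI d10, against 44.9 to 64.7 in the other 8 libraries. Without Ctrl d0 and V1PAKI d10 its change was -0.16.

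The shares called in the next 3 groups stand against the same backgrounds of 15.1% for falls and 17.4% for rises. In complex III, 2 of 8 nuclear genes tested fell (25.0%), UQCRFS1 (0.72), the Rieske iron-sulfur protein, and UQCRC2 (0.61), a core protein. UQCRC1, the other core protein, changed by -0.31 (limma adjusted p = 0.204). The call of UQCRFS1 was lost without Ctrl d0 and V1PAKI d10 (-0.69). That of UQCRC2 was lost in TPM (-0.42, limma adjusted p = 0.0837). In complex IV, 3 of 13 fell (23.1%), COX7C (0.74), COX6A1 (0.68) and NDUFA4 (0.65), a subunit first assigned to complex I by name. COX6A1 did not pass in TPM (-0.47, limma adjusted p = 0.0608). Of the assembly factors, 4 of 21 fell (19.0%) and 1 rose (4.76%). NDUFAF7, a methyltransferase of complex I assembly, fell by 1.38 (SE 0.254, limma adjusted p = 0.00691), from 11.3 and 21.5 FPKM at d0 to 4.56 to 6.07 at day 16. NDUFAF4 fell by 1.22 (SE 0.225, limma adjusted p = 0.00705), COX16 by 0.66 and SDHAF3 by 0.73. NDUFAF3 rose by 0.96 (SE 0.266, limma adjusted p = 0.0293). Without Ctrl d0 and V1PAKI d10 the calls of SDHAF3 (-0.99) and NDUFAF3 (0.98) were lost. In TPM those of COX16 (-0.47, limma adjusted p = 0.0533) and SDHAF3 (-0.62, limma adjusted p = 0.118) were lost.

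Tissue-restricted isoforms of complex IV were at low levels at every stage. COX4I2, COX6A2, COX7A1 and COX8C were at or below 1.05 FPKM in every library and made up at most 2.85% of the sum with their common partners. COX6B2, known from testis, reached 2.33 FPKM and 4.58% of the sum with COX6B1. NDUFA4L2 reached 0.495 FPKM, UQCRHL 1.10 and ATP5MGL 0.292. The 7 of these other than COX6B2 were not tested. A value of 0 in some libraries, found for 5 nuclear members, can be a failed estimate.

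Nuclear respiratory genes are known targets of the transcription factor NRF1 and of ETS-family factors such as GABPA. A promoter window of 300 bases (250 before and 50 after the start, RefSeq, GRCh38.p14) was matched by symbol for 86 of the 108 nuclear members. The NRF1 motif GCGCATGCG, on either strand, was found in 13 of 86 (15.1%), against 2.099% of 27305 promoters and 3.65% of 10639 promoters of genes tested. A symmetric form that is 1 base longer, searched first, was found in 7 of 86 (8.14%), against 1.36% and 2.28%. The ETS motif CCGGAAGT, on either strand, was found in 13 of 86 (15.1%), against 4.44% and 8.65%. By the change from d0 to day 16, the NRF1 motif was found in 4 of 19 members that fell, 1 of 3 that rose and 8 of 62 not called. The matches in the 5 called members are shown because they join the motif to a measured change, with the motif in capitals and 15 bases on either side, 5′ to 3′ on the gene's strand.
ATP5F1C, chr10:7788140-7788178, plus strand: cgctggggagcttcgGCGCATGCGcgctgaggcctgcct
COX6A1, chr12:120437879-120437917, plus strand: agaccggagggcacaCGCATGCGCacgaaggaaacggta
NDUFB4, chr3:120596162-120596200, plus strand: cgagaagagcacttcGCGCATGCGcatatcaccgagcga
SDHD, chr11:112086748-112086786, plus strand: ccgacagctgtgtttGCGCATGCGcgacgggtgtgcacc
ATP5MC2, chr12:53676101-53676139, minus strand: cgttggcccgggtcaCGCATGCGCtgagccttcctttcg
The first 4 fell and ATP5MC2 rose, so the motif was held by members that moved in opposite directions. The other 8 with a match were ATP5ME, ATP5PF, COX17, COX18, NDUFA8, NDUFAF5, NDUFS6 and NDUFS7, with changes from -0.49 (COX17) to 0.59 (ATP5ME), none of which passed the test. A match of letters describes the sequence only.

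V1PAKI and Ctrl were compared over all 5 stages with stage as a block, and 0 members of either genome passed the test. limma called 0% of all genes higher and 0.019% lower in V1PAKI. At an unadjusted p below 0.05 there were 0 members, against 161 genes higher and 229 lower of the 15779 tested. Median differences (V1PAKI minus Ctrl) were -0.01 for mitochondrial and 0.09 for nuclear members. Stage by stage, with no test because each line had 1 library, 0 mitochondrial members reached a log2 difference of 1 at any stage.
Nuclear members differed at d0 and d10 and in opposite directions. At d0, 19 of 101 were at least 1 higher in V1PAKI (background 3.73%) and 0 lower (background 0.82%). At d10, 17 of 101 were at least 1 lower (background 7.45%) and 0 higher (background 3.78%). At d4, d16D and d16V there were 0 in either direction, with backgrounds of 0.797% and 0.857%, 5.5% and 3.46%, and 0.412% and 2.49% for higher and lower.

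The overlap of such d0 and d10 lists over all genes was not counted. The d0 and d10 lists of members shared 13 genes, which is 68.4% of the first and 76.5% of the second. Among them were COX6B1, a complex IV subunit facing the space between the membranes, NDUFA13, a complex I subunit also known as GRIM-19, and UQCR10, a small subunit of complex III. COX6B1 was at 14.9 FPKM in Ctrl d0 and 19.7 in V1PAKI d10, against 38.2 to 69.7 in the other 8 libraries, and NDUFA13 was at 7.48 and 10.6, against 29.4 to 40.4. By the longest annotated transcript of each gene, the 13 had a median GC content of 55.6% and a median length of 804 bases. The 78 members in neither list had 45.3% and 1663 bases. With the trend with GC content and length removed, 15 members were at least 1 higher in V1PAKI at d0 (2.36% of all genes) and 7 at least 1 lower at d10 (3.77% of all genes). Ctrl d10, the other library in the d10 difference, deviated towards high values of GC-rich members (rho 0.600 over 101 nuclear members, -0.664 in V1PAKI d10). RNA quality of the libraries is not given in the sources used here, and its part was not tested.

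**Figure D5:**
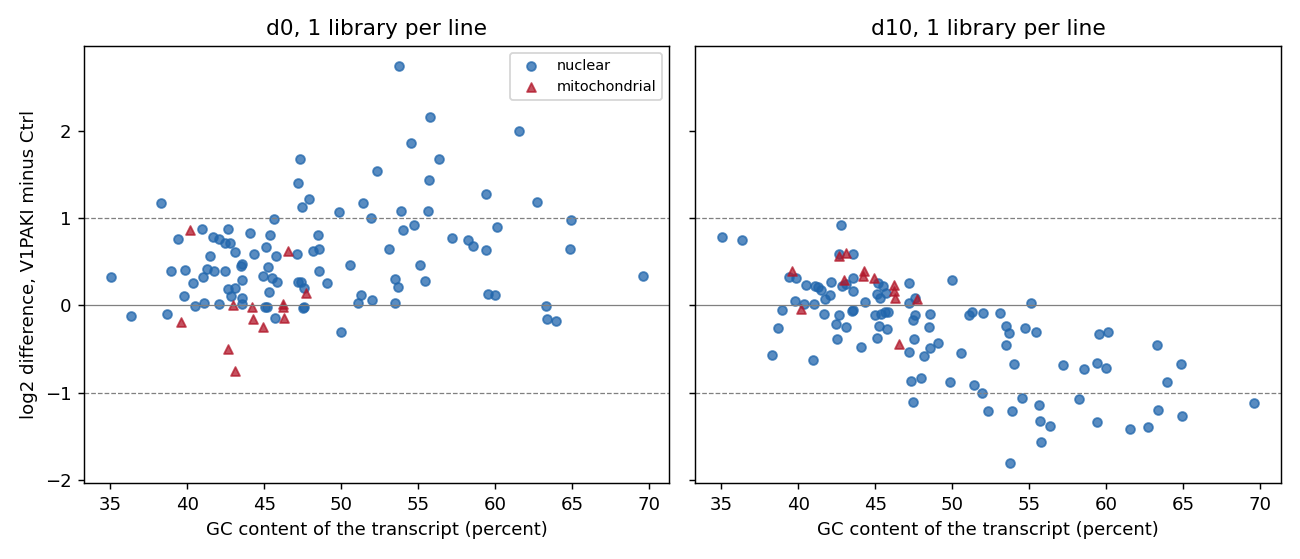
Log2 difference V1PAKI minus Ctrl of each member against the GC content of its longest annotated transcript, at d0 and d10. Each line has 1 library, and dashed lines are at 1 and -1. At d0, 19 nuclear members lie above 1, and at d10, 17 lie below -1, while 0 mitochondrial members pass either line.

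Other genes of the pathway give the setting from d0 to day 16, where 15.1% of all genes tested fell, 17.4% rose and the median change was 0.07. Of the factors that process and stabilise mitochondrial RNA, 11 of 17 fell (64.7%), with 0 rises and a median of -0.73. Without Ctrl d0 it was 3 of 17, where 4.8% of all genes fell. LRPPRC, which with SLIRP binds and stabilises mitochondrial messages, was at 48.0, 33.8, 17.4, 15.4 and 18.0 FPKM in Ctrl and 40.8, 34.6, 35.8, 17.8 and 16.6 in V1PAKI, a fall of 1.34 (SE 0.258, limma adjusted p = 0.0081). SLIRP fell by 1.21 and REXO2, an RNA-degrading enzyme, by 1.36. Factors for replication and transcription of mitochondrial DNA fell in 6 of 16 (37.5%) with 0 rises, among them TFAM (0.77), which packages mitochondrial DNA, and TFB2M (0.96), a partner of its RNA polymerase. In TPM 3 of the 16 fell and 3 rose, where 10.3% of all genes fell and 24.6% rose. Of the regulators of biogenesis, 3 of 9 tested fell (33.3%), MYC (1.61), PPARGC1B (0.96) and PPRC1 (0.61), and 0 passed without Ctrl d0 and V1PAKI d10, while NRF1 itself changed by 0.48 (limma adjusted p = 0.0634).

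Mitochondrial ribosomal proteins fell in 25 of 78 (32.1%), with 0 rises and a median of -0.46. In TPM 14 fell and 0 rose (10.3% and 24.6% of all genes), and without V1PAKI d16V 8 fell (7.2% of all genes). Their median was -0.28 without V1PAKI d0 and -0.59 without Ctrl d0. Cytosolic ribosome genes fell in 3 of 81 (3.70%), with 1 rise and a median of 0.01. The cytosolic list follows names and also holds S6 kinases: its falls were RPS26 (1.51), RPS27A (0.71) and RPS6KA1 (0.71) and its rise RPS6KA3. Assembly factors outside the members, taken with cytochrome c, fell in 7 of 37 (18.9%, near the background) and rose in 3 (8.11%), with CYCS, cytochrome c itself, down by 1.12 and PET100, of complex IV assembly, up by 1.42, a rise that missed the threshold without Ctrl d0 and V1PAKI d10 (0.83, limma adjusted p = 0.059). Citric acid cycle genes fell in 4 of 18, or 22.2% (SUCLG2, DLAT, MDH2 and PDHB), and IDH2 rose by 1.26. In TPM 4 fell and 3 rose, and without V1PAKI d16V 0 fell and 1 rose. Their median of -0.32 was -0.11 without V1PAKI d0 and -0.48 without Ctrl d0. Glycolysis genes fell in 10 of 20 with 0 rises and a median of -0.96, led by SLC2A3 (2.42), a glucose transporter, and LDHA (2.09), lactate dehydrogenase. In TPM 9 fell and 2 rose. Their median was -0.76 without V1PAKI d0 and -1.14 without Ctrl d0. SLC2A3 stood at -1.86 without Ctrl d16D and -2.98 without V1PAKI d16D. At d16D, 5 of the 20 were at least 1 higher in V1PAKI than in Ctrl, against 5.5% of all genes. Of 24 mitochondrial RNAs outside the members, 3 fell (12.5%) and 2 rose (8.33%), both under the background. MT-RNR2, the large ribosomal RNA, fell by 0.66, and MT-TP and MT-TT, transfer RNAs, by 0.81 and 0.63. The transfer RNAs MT-TF and MT-TL1 rose by 1.59 and 0.52. In TPM 0 of the 24 fell and 3 rose. Without Ctrl d0 and V1PAKI d10 the changes were -0.73 (MT-RNR2), -0.73 (MT-TP), -0.47 (MT-TT), 1.84 (MT-TF) and 0.41 (MT-TL1). At d0, 8 of the 24 were at least 1 higher in V1PAKI than in Ctrl, against 3.73% of all genes.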

How the data were processed

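The authors deposited FPKM values for 42335 gene symbols in 10 libraries. Per the submitters' processing notes the tools were cutadapt 1.18, HISAT2 2.1.0 and Cufflinks with GRCh38; for annotation, filters and strand, the setting is not given in the sources used here. Genes at or above 1 FPKM in 2 or more libraries (15779) were fitted as log2(FPKM + 1), pseudocount 1, in R 4.3.3 with limma 3.58.1 (lmFit, eBayes with trend), with stage and genotype as terms, 4 residual degrees of freedom (7.77 after moderation), two-sided tests and Benjamini-Hochberg adjustment over all genes at 0.05. Log differences understate changes of low genes. Single-stage comparisons count differences of at least 1. Lengths, GC content and positions came from GENCODE 29. Length and GC content are those of the longest transcript of each gene, protein-coding where there was one. That transcript need not be the one expressed. The fit was tested on simulated data. Named genes are the 13 mitochondrial members, called members, the 3 highest and lowest nuclear members, isoform pairs, core subunits and called or extreme genes of the other lists. Members and lists were chosen with earlier results of these data known. Alternatives were another pseudocount, filters, scalings, terms and libraries.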

Additional observations from a re-analysis of the deposited data

Results flagged for a closer look

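Between d4 and d10 the log2 ratio of summed mitochondrial to summed nuclear FPKM moved in opposite directions in the lines, by -0.37 in Ctrl and 0.33 in V1PAKI, a gap of 0.70. It was listed because both changes exceeded 0.3 with opposite signs. Each rests on 1 library per stage and the difference was not tested. V1PAKI d10 is a library with low values of GC-rich nuclear members, and Ctrl d10 is one with high values of them. The part of either library in the gap was not tested.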

How the results depend on the processing

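From d0 to day 16, 38 members were called (12 mitochondrial and 26 nuclear), and this count ran from 11 to 44 when 1 library was left out and was 18 with no filter on low values, where 42335 genes were tested. The median of mitochondrial members in this comparison was -0.71 in TPM and ran from -1.10 to -0.87 when 1 library was left out. For d10 minus d4 the count of calls ran from 0 to 1, and medians with 1 library left out ran from -0.57 to -0.20 for mitochondrial and from -0.44 to -0.087 for nuclear members. Nuclear medians ran from -0.47 to 0.10 for day 16 minus d0 (0.020 in TPM), from -0.10 to 0.33 for d4 minus d0, from -0.23 to 0.13 for d16D minus d10, and from -0.34 to 0.045 for d16V minus d10, where without Ctrl d0 and V1PAKI d10, an alternative chosen after seeing the data, the value was -0.27. For d16V minus d16D the mitochondrial median of 0.08 was 0.11 in TPM, 0.13 with scaling to genes not encoded by mitochondrial DNA and 0.049 with median-of-ratios scaling, and ran from 0.0069 to 0.17 when 1 library was left out. Members not called that changed sign from d0 to day 16 were NDUFA1 (-0.16), NDUFV1 (-0.17), COX4I1 (-0.13) and ATP5IF1 (-0.15) without both libraries that stood apart, NDUFV1 (-0.036) with the GC and length trend removed and COX8A (0.11) in TPM. With 1 library left out the values ran from -0.11 to 2.06 for NDUFA13, -0.40 to 2.69 for NDUFA1, -0.26 to 0.49 for NDUFV1, -0.69 to 0.20 for ATP5MC3, -0.22 to 0.25 for COX4I1, -0.47 to 0.26 for COX8A and -0.28 to 0.91 for ATP5IF1. The causes were not tested. No paired analysis was possible because replicate numbers pair no samples, each line having 1 library per stage, other than the pairing of the lines by stage that the fit holds as a term. Without depth, no counting error could be given.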
